A study of Homo sapiens with 3 samples.

Results

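The genes described here are the 10 regulators of passage through the G1 phase of the cell cycle that were listed by name: the D-type cyclins CCND1, CCND2 and CCND3, the E-type cyclins CCNE1 and CCNE2, the kinases CDK4 and CDK6, and the inhibitors CDKN1A, CDKN1B and CDKN1C. Each was matched by its symbol, and 10 of the 51136 genes in the count table were members. RNA-seq was performed on PANC-1, a long-established line of human pancreatic ductal carcinoma cells, in 3 libraries of 1 sample each. The control library came from cells that the labels give no agent, the Rg3 library from cells treated with Ginsenoside Rg3, a ginseng saponin, at 200 μM for 24 h, and the TAM library from cells treated with tamoxifen, a drug against the estrogen receptor that also inhibits protein kinase C, at 50 μM for 24 h. All cells were kept in the same serum-containing medium, and whether the control cells received a vehicle is not given in the sources used here. Summed over genes, the control library held 11300766 reads, the Rg3 library 12861693 and the TAM library 11321442.

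Cells leave G1 when D-type cyclins, which mitogens induce, bind CDK4 or CDK6 and the complexes phosphorylate the retinoblastoma protein RB1. E2F factors are then released and switch on CCNE1 and CCNE2, whose partner CDK2 completes the phosphorylation of RB1. The inhibitors CDKN1A (p21), CDKN1B (p27) and CDKN1C (p57) bind cyclin-CDK2 complexes and block them, and they also take part in the assembly of cyclin D complexes. Stress and differentiation signals are known to raise CDKN1A. PANC-1 is known to lack the INK4 locus that encodes the CDK4 and CDK6 inhibitors CDKN2A and CDKN2B, and no read was counted on either gene in any library. A count of 0 still allows up to 3 reads in a library, or 0.265 CPM in control.

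The data have 1 library per condition, so that no difference below has a replicate check. Each gene's reads were compared by the exact binomial test (two-sided), with Benjamini-Hochberg adjustment over every gene that reached 10 counts in one of the paired libraries, and the test speaks of these libraries and not of conditions. Called higher or lower means that the adjusted p was below 0.05 and that the fold passed 1.5 or fell below 0.67 after TMM scaling, which takes most genes as unchanged. Intervals are exact 95% intervals and cover counting error only. They are Clopper-Pearson intervals for fold changes and shares, Poisson intervals for levels, and conditional odds ratio intervals for changes of ratios. Compared with library totals, TMM shifted every log2 fold change by -0.14 for Rg3, by 0.21 for TAM and by 0.35 for TAM against Rg3. In TAM against Rg3, 27.0% of all genes compared were called higher and 31.0% lower, so the calls there do not bear out the premise of TMM. Across all genes, fold changes were related to GC content, with a Spearman's rho of -0.807 over 11583 genes for Rg3 and of 0.507 over 11022 genes for TAM. Therefore, each member's change is also given after removal of a smooth trend on GC content and transcript length. Of 5 markers of ductal epithelium, KRT7, KRT8, KRT18 and KRT19 had between 93 and 15329 counts in the 3 libraries and EPCAM had 8 to 26. With TAM, KRT19 (-1.67, and -2.19 without the GC and length trend) and EPCAM (-1.49, and -1.62 without it) were called lower in both forms. KRT7 was called higher with TAM (0.68, and 0.19 without the GC and length trend, no longer called). Of 10 markers of immune, endothelial, acinar and islet cells, 9 had at most 1 count in any library, 7 of them having 0 in each library, and CD68 had 426 to 1100. CD68 was called lower with Rg3 (-0.86, and -0.50 without the GC and length trend, no longer called) and higher with TAM (1.04, and 0.66 without it, still called). The 4 keratins were called lower with Rg3, and the median log2 fold change of the 5 epithelial markers was -1.30. Without the trend that median was -0.87, and KRT18 was no longer called (-0.54). The part of these marker shifts in the results below was not tested. In bulk RNA, fewer cells with a transcript and less of it per cell cannot be told apart.

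The sequences upstream of CDK4 and CDKN1A are shown because these genes had the largest increases with TAM, and that of CDK6 because it was called lower there. Each line holds the 250 bases before a RefSeq start (GRCh38.p14), 5′ to 3′ on the gene's strand, with the GC box GGGCGG in capitals, which reads as CCGCCC where the box lies on the other strand. They span chr12:57752311-57752560 (minus strand) for CDK4, chr6:36678464-36678713 (plus strand) for CDKN1A and chr7:92836574-92836823 (minus strand) for CDK6. The starts of CDK4, CDKN1A and CDK6 lie inside the spans that GENCODE gives these genes, since some transcripts start farther upstream.
CDK4: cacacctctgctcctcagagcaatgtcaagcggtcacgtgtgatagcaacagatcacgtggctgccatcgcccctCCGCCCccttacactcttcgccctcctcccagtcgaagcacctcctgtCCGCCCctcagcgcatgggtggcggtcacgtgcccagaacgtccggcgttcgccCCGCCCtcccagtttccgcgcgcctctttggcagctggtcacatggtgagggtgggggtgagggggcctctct
CDKN1A: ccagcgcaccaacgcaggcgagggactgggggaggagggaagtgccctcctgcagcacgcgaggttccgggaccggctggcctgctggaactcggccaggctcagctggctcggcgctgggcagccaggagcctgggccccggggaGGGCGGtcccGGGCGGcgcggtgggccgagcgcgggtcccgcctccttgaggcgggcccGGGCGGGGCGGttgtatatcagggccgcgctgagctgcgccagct
CDK6: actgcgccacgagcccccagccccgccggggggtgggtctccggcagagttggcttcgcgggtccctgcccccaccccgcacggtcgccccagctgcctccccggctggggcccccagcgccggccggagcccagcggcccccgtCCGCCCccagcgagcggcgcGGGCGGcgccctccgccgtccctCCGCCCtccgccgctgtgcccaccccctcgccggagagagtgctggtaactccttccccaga
The window of CDK4 holds 3 GC boxes, that of CDKN1A 4, of which a pair overlaps by 1 base, and that of CDK6 3. Windows of 300 bases (250 before a start to 50 after it) were given for 6 members, CCND3, CCNE1, CDK4, CDK6, CDKN1A and CDKN1B, with 9 starts in all. CCND1, CCND2, CCNE2 and CDKN1C had no entry. Of the 9 windows, 7 held a GC box on either strand, at least 1 for each of the 6 genes, against 45.0% of all 35116 windows. The most were in CCNE1, with 7. An E2F core, searched on both strands as TTCCCGC and in its variant forms TTGGCGC as well as TTCGCGC and also TTGCCGC, was in 0 of the 9 windows and in 4553 of all windows. The AP-1 site TGACTCA (4.95% of all windows), the TATA box TATAAA (11.5%), the CARE element TGATGCAA (0.866%) and the CHR element TTTGAA (15.2%) were in 0 of the 9 as well. The CRE core TGACGT (7.98% of all windows) was in 1 window, the other one of CDK6. These matches describe the letters of the windows and say nothing of binding.

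GENCODE 29 places the members as follows on GRCh38, the build in the submitters' processing notes. CCND1 is at chr11:69641087-69654474 on the plus strand and CDKN1C at chr11:2883213-2885773 on the minus strand. CCND2 (chr12:4273772-4305350, plus), CDK4 (chr12:57747727-57756013, minus) and CDKN1B (chr12:12715058-12722371, plus) share a chromosome. CCND3 (chr6:41934933-42050357, minus) and CDKN1A (chr6:36676460-36687339, plus) share another. CCNE1 is at chr19:29811898-29824308 on the plus strand, CCNE2 at chr8:94879770-94896678 on the minus strand and CDK6 at chr7:92604921-92836594 on the minus strand. Exons of other genes overlap those of several members on the opposite strand, and the sources used here do not state whether reads were counted by strand. For CCNE2, 48.2% of the stretches of 50 bases of the longest transcript recur in INTS8, and for CDK4, 46.0% recur in other genes, mainly TSPAN31. For CCND1 the share was 9.44%, in LTO1, and for CCND2 it was 14.6%. It was 0.341% for CCND3 and 0 for CCNE1, CDK6, CDKN1A, CDKN1B and CDKN1C.

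In the control library, CDK4 had the highest level per length of the members, at 137.8 RPKM, taken over the longest transcript and the library total. CCND1 followed at 56.7, CDKN1A at 37.0, CCND3 at 30.6 and CCNE1 at 11.7 RPKM. Below these came CDKN1B (4.90 RPKM), CDK6 (2.05), CDKN1C (1.19), CCNE2 (0.771) and CCND2 (0.0683). Neighbours in this order were apart by more than their counting intervals, except CDKN1C (0.776 to 1.74) and CCNE2 (0.516 to 1.11). The order of the 10 genes was the same in the Rg3 library. In the TAM library, CDK4 still stood first at 249.9 RPKM, while CDKN1A (67.4) came second and CCND3 (47.5, interval 44.9 to 50.2) stood beside CCND1 (43.3, interval 41.5 to 45.2). CDK6 (0.959 to 1.33) and CDKN1C (0.316 to 1.01) overlapped there too, as did CDKN1C and CCNE2. The spread between cultures behind this order is not known.

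**Figure D1:**
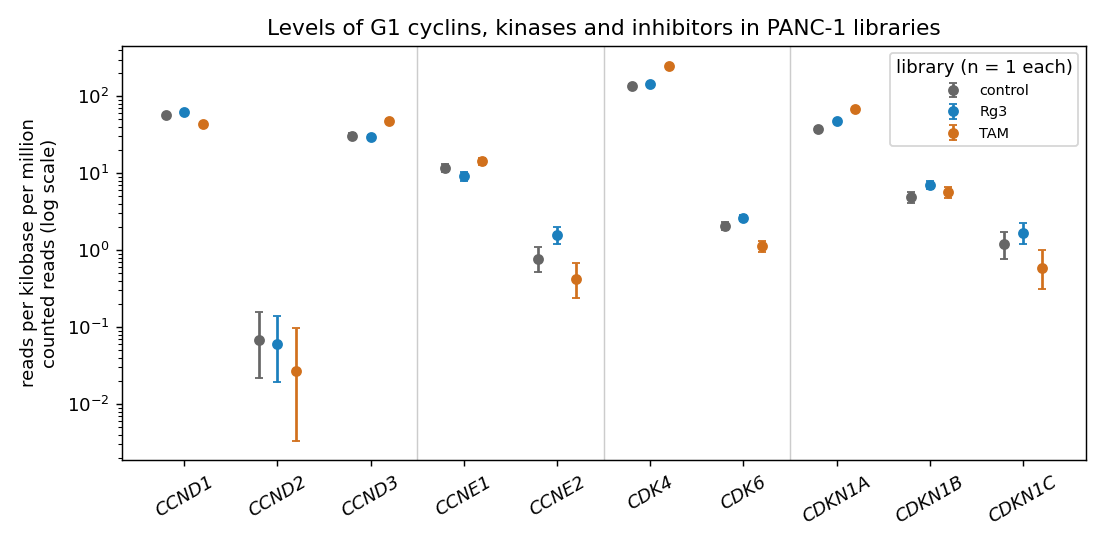
Level of each member in the control, Rg3 and TAM libraries, in RPKM over the longest transcript on a log scale, with points for the single library of each condition and bars for exact 95% counting intervals. CDK4 is highest in each library (137.8, 142.3 and 249.9), and CCND2 is lowest, at 2 to 5 counts.

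With Rg3, 1 of the 9 members compared was called higher, CCNE2, and 0 were called lower, where 20.5% of the 16487 genes compared were called higher and 15.8% lower. CCND2 was not compared, since it had under 10 counts in each library. The median log2 fold change of the 9 members was 0.21, beside 0.04 over all genes compared. With TAM, 3 of the 9 were called higher, CDK4, CDKN1A and CCND3, and 1 was called lower, CDK6, beside 14.0% of 16079 genes called higher and 18.4% called lower. Their median was 0.41, beside -0.02 over all genes. When the TAM library was set directly against the Rg3 library, 4 members were higher, CCND3, CCNE1, CDK4 and CDKN1A, and 3 were lower, CCNE2, CDK6 and CDKN1C. In that comparison, 27.0% of 16493 genes were called higher and 31.0% lower, and the median of the members was 0.02. Both treated libraries were set against the same control library, so that their changes are not independent.

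**Figure D2:**
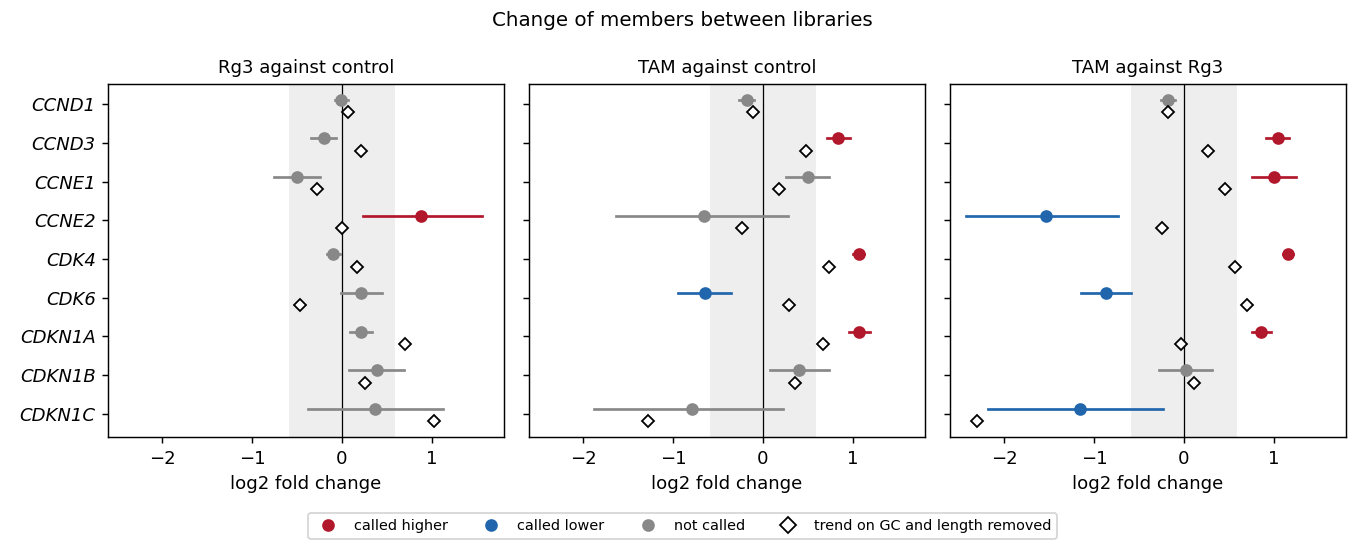
Log2 fold change of the 9 members compared, for Rg3 against control, TAM against control and TAM against Rg3, with circles for TMM-scaled values, bars for exact 95% counting intervals and diamonds for values without the GC and length trend. The shaded band holds folds from 0.67 to 1.5. For TAM against control, CDK4 and CDKN1A lie right of the band in both forms, whereas CDK6 changes side. For TAM against Rg3, the diamonds of CDK4 (0.56) and CDKN1A (-0.04) lie inside the band.

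Among the D-type cyclins, which couple mitogen signals to CDK4 and CDK6, CCND1 had 2760 reads in control, 3450 under Rg3 and 2111 under TAM. After scaling, its level was nearly the same with Rg3 (log2 fold change 0.00, 95% interval -0.08 to 0.07) and slightly lower with TAM (-0.18, -0.26 to -0.10), and neither passed 1.5-fold. With library totals the value for Rg3 was 0.14. Without the GC and length trend CCND1 stood at 0.07 with Rg3 and -0.11 with TAM. CCND3 had 829 reads in control, 903 under Rg3 and 1287 under TAM. The TAM library stood above both others, with a log2 fold change of 0.84 (0.71 to 0.97) against control. Against Rg3 the log2 difference of CCND3 was 1.04 (0.92 to 1.17). Against control with Rg3, CCND3 stood at -0.20 (-0.34 to -0.07). Once the GC and length trend was taken out, the value of CCND3 was 0.48 with TAM, no longer called, 0.21 with Rg3, and 0.27 for TAM against Rg3, no longer called. CCND2 had 5 reads in control, 5 under Rg3 and 2 under TAM, which is too few reads to detect a difference.

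The makeup of the D-type cyclin reads therefore differed with TAM. CCND1 gave 76.8% of the reads of the 3 genes in control (exact interval 75.4 to 78.2), 79.2% under Rg3 (77.9 to 80.4) and 62.1% under TAM (60.4 to 63.7). CCND3 gave 23.1%, 20.7% and 37.9% of them. A share within a library does not depend on the scaling between libraries. The ratio of CCND1 to CCND3 reads was 3.33 in control, 3.82 under Rg3 and 1.64 under TAM, a log2 change of -1.02 with TAM (-1.17 to -0.87). That change was -0.60 without the trend.

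**Figure D3:**
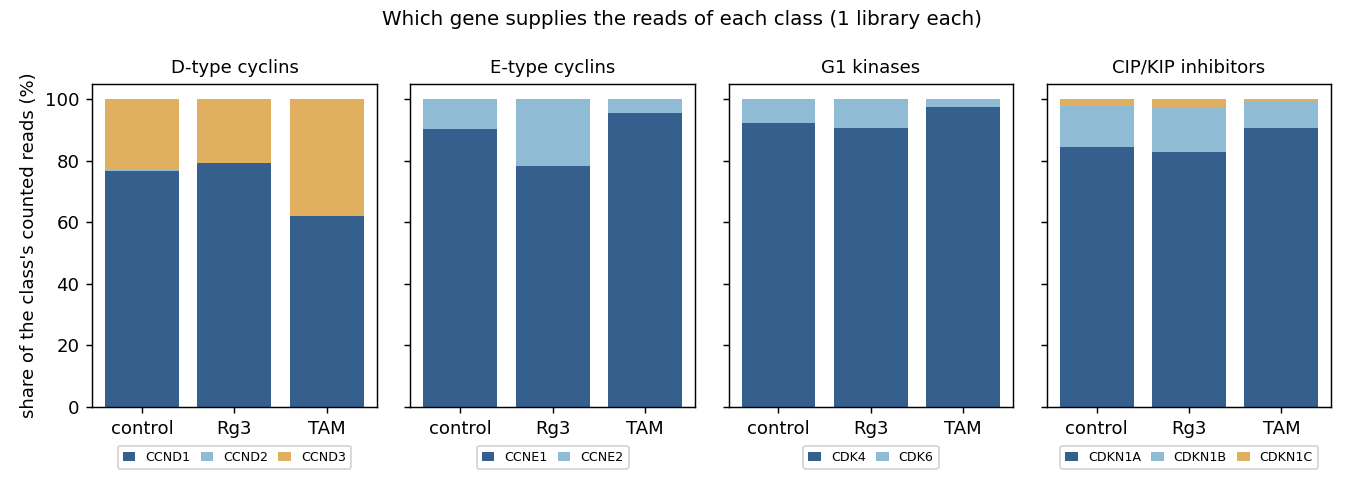
Share (%) of the reads of each class that each of its genes supplied in the control, Rg3 and TAM libraries, as stacked bars from 0. CCND3 takes 37.9% of D-type cyclin reads with TAM against 23.1% in the control library, and CCNE2 takes 21.8% of E-type cyclin reads with Rg3 against 9.67%.

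The E-type cyclins, partners of CDK2, had TMM-scaled values of opposite sign with each agent, though that of CCNE2 with TAM was not separated from 0. CCNE1 had 271 reads in control, 240 under Rg3 and 332 under TAM. Its log2 fold change was -0.50 with Rg3 (-0.76 to -0.25) and 0.50 with TAM (0.26 to 0.74), each under 1.5-fold, and the treated libraries differed by 1.00 (0.76 to 1.25), which was called. Without the trend the values of CCNE1 were -0.28, 0.18 and 0.46, none of them called. CCNE2 had 29 reads in control, 67 under Rg3 and 16 under TAM. It was called higher with Rg3, by 0.88 on the log2 scale (0.23 to 1.56, adjusted p = 0.0101 by the exact binomial test). With TAM its value was -0.65 (-1.63 to 0.28), which the counts do not separate from 0. TAM against Rg3, the difference was -1.53 (-2.42 to -0.73), and -0.24 without the trend, which was not called. INTS8, whose exons overlap CCNE2 on the opposite strand, had 189, 571 and 118 counts and was itself called higher with Rg3 (log2 fold change 1.27). How far its reads entered the count of CCNE2 was not tested. The transcript of CCNE2 has a GC content of 36.9%, and genes with 34 to 38% GC had a median log2 fold change of 0.87 with Rg3. With the trend removed, the change of CCNE2 with Rg3 was 0.00 and with TAM -0.24, neither called. The ratio of CCNE1 to CCNE2 reads was 9.35 in control, 3.58 under Rg3 and 20.8 under TAM, and its log2 change was -1.38 with Rg3 (-2.11 to -0.68) and 1.15 with TAM (0.19 to 2.16). Both were smaller without the trend (-0.28 and 0.42).

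Of the kinases that D-type cyclins activate, CDK4 was by far the more abundant. It had 3233 reads in control, 3799 under Rg3 and 5873 under TAM. With Rg3 the log2 fold change was -0.09 (-0.16 to -0.03), or 0.0461 with library totals, and CDK4 rose with TAM by 1.07 (1.00 to 1.13), a 2.10-fold difference between the libraries. The adjusted p by the exact binomial test was 1.7e-260, which reflects the number of reads and not the spread between cultures. TSPAN31, which overlaps CDK4 on the opposite strand, had 76, 55 and 58 counts, and was called lower with Rg3 (-0.79) but not with TAM (-0.18). CDK4 was still called higher with TAM under library totals (0.86), DESeq2 size factors (1.10) and removal of the trend (0.74). TAM against Rg3, the difference was 1.16 (1.10 to 1.22), and 0.56 without the trend, which was not called.

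CDK6 had 269 reads in control, 392 under Rg3 and 149 under TAM. It was called lower with TAM, by -0.65 on the log2 scale (-0.94 to -0.35) with TMM scaling, -0.85 with library totals and -0.61 with DESeq2 size factors, but its direction turned to 0.29 with the trend removed. With Rg3 the value was 0.22 (-0.01 to 0.45), and -0.47 without the trend. TAM against Rg3, CDK6 was called lower (-0.86, -1.15 to -0.59) and, without the trend, higher (0.71). CDK6 has the longest transcript of the members, at 11612 bases, with a GC content of 39.5%, and across all genes the fold changes with TAM fell with length (rho, -0.452). Genes with 38 to 42% GC had a median log2 fold change of -0.48 with TAM. Per length, CDK6 stood at 0.0149 of the CDK4 level in control, 0.0185 under Rg3 and 0.00454 under TAM. The log2 change of the CDK6 to CDK4 ratio with TAM was -1.71 (-2.02 to -1.41), and -0.45 with the trend removed. CDK4 gave 92.3% of the reads of both kinases in control, 90.7% under Rg3 and 97.5% under TAM.

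Among the inhibitors, CDKN1A (p21) had 948 reads in control, 1377 under Rg3 and 1730 under TAM, and both treated libraries stood above the control library. With TAM it was called higher by 1.07 on the log2 scale (0.96 to 1.19, adjusted p = 5.83e-78 by the exact binomial test), a 2.11-fold difference. With Rg3 the log2 fold change was 0.21 (0.09 to 0.33), under 1.5-fold. The transcript has a GC content of 58.1%, and genes with 58 to 62% GC had a median of -0.54 with Rg3 and of 0.39 with TAM. With the trend removed, CDKN1A was called higher in both treated libraries, by 0.70 with Rg3 and 0.67 with TAM, and the difference between these libraries went from 0.86 (0.76 to 0.97) to -0.04. With library totals that difference was 0.51 and was not called. CDKN1A rose with TAM under each scaling, by 0.87 with library totals and 1.11 with DESeq2 size factors.

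CDKN1B (p27) had 147 reads in control, 241 under Rg3 and 169 under TAM. Its log2 fold change was 0.39 with Rg3 (0.08 to 0.69) and 0.41 with TAM (0.08 to 0.74), and neither was called. The signs stayed without the trend (0.26 and 0.36). The interval of the difference between the treated libraries, -0.27 to 0.31, includes 0, and that difference was 0.02 with TMM scaling and -0.33 with library totals. CDKN1C (p57) had 26 reads in control, 42 under Rg3 and 13 under TAM, and against control neither 0.37 (-0.37 to 1.13) nor -0.79 (-1.88 to 0.22) was called. The treated libraries differed by -1.16 (-2.18 to -0.23), and by -2.31 without the trend, called in both forms. CDKN1C has the highest GC content of the members (63.8%), and with the trend removed it was called higher with Rg3 (1.02) and lower with TAM (-1.28). CDKN1A gave 84.6% of the reads of the 3 inhibitors in control, 83.0% under Rg3 and 90.5% under TAM.

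**Figure D4:**
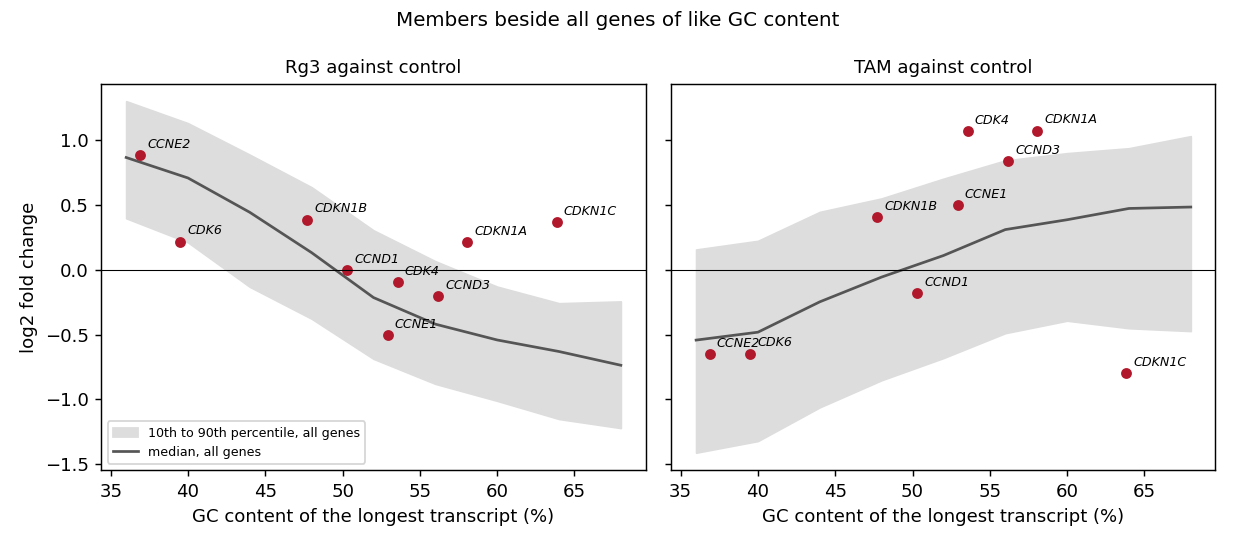
Log2 fold change of the 9 members compared (points) against the GC content (%) of the longest transcript, for Rg3 and TAM against control. The line is the median and the band the 10th to 90th percentile of all genes with at least 50 counts, in steps of 4% GC. With Rg3, CDKN1A (0.21) and CDKN1C (0.37) lie above the band, and CDK6 (0.22) lies at its lower edge. CCNE2 (0.88) lies on the line of genes with its GC content there. With TAM, CDK4 (1.07) and CDKN1A (1.07) lie above the band and CDKN1C (-0.79) below it. CDKN1C has under 50 counts in each library, and its counting intervals reach into the band.

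Ratios of reads were compared within libraries for 8 pairs of members, of which 3 set an inhibitor against a cyclin. The ratio of CDKN1A to CCND1 reads was 0.344 in control, 0.399 under Rg3 and 0.820 under TAM. On the log2 scale it was 0.22 above control with Rg3 (0.08 to 0.36) and 1.25 above it with TAM (1.11 to 1.40), and the TAM library stood 1.04 above the Rg3 library (0.91 to 1.17). Without the GC and length trend the values were 0.63 with Rg3, 0.78 with TAM and 0.14 between them. The ratio of CDKN1B to CCND1 also was higher with Rg3 (0.39, 0.08 to 0.71) and TAM (0.59, 0.25 to 0.93), and these changes were 0.19 and 0.47 without the trend. For CDKN1B to CCNE1 it was 0.542 in control, 1.00 under Rg3 and 0.509 under TAM, and against control, only the change with Rg3 had an interval apart from 0 (0.89, 0.49 to 1.29, and 0.53 without the trend). For CDKN1A to CDKN1B, the change was -0.17 with Rg3 (-0.50 to 0.15) and 0.67 with TAM (0.32 to 1.01), and without the trend it was 0.45 and 0.31, so that the direction with Rg3 turned. For CCND1 to CDK4, the ratio was 0.854 in control, 0.908 under Rg3 and 0.359 under TAM, and its log2 change with TAM was -1.25 (-1.35 to -1.14), and -0.85 without the trend.

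The genes around the members in the pathway were read from 6 lists. Over all genes compared, 20.5% were called higher and 15.8% lower with Rg3, and 14.0% and 18.4% with TAM. Without the trend, 11.9% of all genes with a GC value were called in either direction with Rg3 and 21.7% with TAM. No list was tested against these shares. Of 19 other regulators of G1 and S phase entry, 17 were compared, with 4 higher and 2 lower for Rg3 (median 0.01) and 4 higher and 4 lower for TAM (median 0.10). RB1, the main target of CDK4 and CDK6, had 160 reads in control, 333 under Rg3 and 47 under TAM. It was called higher with Rg3 (0.73) and lower with TAM (-1.56), and its relative RBL1 was likewise (0.83 and -1.02), while RBL2 was called lower with TAM (-1.10). RBL1 was called in neither library without the trend (0.13 and -0.38), whereas RBL2 still was with TAM (-0.66). The values of RB1 without the trend were -0.13 with Rg3 and -0.95 with TAM, and the second was still called. E2F1, the activator that RB1 restrains, had 802, 623 and 1271 counts and was called lower with Rg3 (-0.69) and, with TAM, higher (0.87), while neither was called without the trend (-0.06 and 0.45). E2F2, a further activator, was called lower with Rg3 (-1.37, and -0.90 without the trend). E2F4 and E2F5, which bind RBL1 and RBL2, were called higher with TAM (0.78 and 0.64) and E2F3 lower (-0.65), and E2F6 and E2F7, which act as repressors, were called higher with Rg3 (0.76 and 0.77). These calls ended without the trend for E2F4 (0.40), E2F3 (-0.32), E2F6 (0.37) and E2F7 (0.28), and E2F5 was still called with TAM (1.26). E2F8, also a repressor, had values of -0.23 and -0.57 and was not called. Of the INK4 inhibitors, CDKN2C (p18), which binds CDK4 and CDK6, was called higher with TAM (1.04, 0.91 to 1.17), from 764 to 1359 counts, and still without the trend (0.70), and CDKN2D had values of 0.21 with Rg3 and 0.13 with TAM. Without the trend the list had 1 gene higher with Rg3, CDKN2D (0.76), and 2 lower, and with TAM 2 higher and 2 lower. With library totals it had 2 higher and 6 lower with TAM, beside 1120 higher and 4325 lower of all 16079 genes compared. CDK2 changed by -0.30 with Rg3 and 0.10 with TAM, and was not called.

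The list of the CDK-activating kinase and the turnover of G1 regulators had 5 of 15 genes higher and 1 lower with Rg3 (median 0.23), and 1 higher and 3 lower with TAM (median -0.05). The 3 subunits of the CDK-activating kinase were called higher with Rg3, CDK7 by 0.78, CCNH by 0.67 and MNAT1 by 0.80, as was SKP1, a subunit of the SCF ubiquitin ligase, by 0.85. USP28, a deubiquitinase, was called higher with Rg3 (0.76) and lower with TAM (-1.25). None of these Rg3 calls held without the trend, where 0 of the 15 were called. SKP2, which marks CDKN1B for degradation, was not called (0.19 with Rg3, -0.39 with TAM), and FBXW7, which marks cyclin E, had 66, 77 and 29 counts and was called lower with TAM (-0.98), though not without the trend (-0.58). With TAM, 4 of the 15 were higher and 2 lower without the trend. CCNH (0.65), MNAT1 (0.87) and SKP1 (0.62) were among the higher there, and USP28 (-0.86) was still called lower. Of 14 other cyclins compared, 7 were higher and 0 lower with Rg3 (median 0.59) and 1 was higher and 2 were lower with TAM (median -0.20). CCNG1 went from 285 to 1217 counts with Rg3, a log2 fold change of 1.77 (1.58 to 1.96), and was the 1 of these 14 still called there with the trend removed (0.99). CCNG2 (1.01), CCNC (0.84) and CCNA2 (0.80), the partner of CDK2 in S phase, were also called higher with Rg3, and CCNF was called higher with TAM (0.68) and CCNT1 and CCNL1 lower (-0.92 and -0.71), and these 3 were not called without the trend (0.53, -0.20 and -0.07). Of 14 other CDKs, 2 were higher and 3 lower with Rg3 (median 0.21), and 4 were higher and 4 lower with TAM (median -0.12). CDK1, which drives mitosis, was called higher with Rg3 (0.83). CDK5 and CDK10 were called lower with Rg3 (-0.63 and -0.76) and higher with TAM (0.88 and 0.76), and CDK19 and CDK12 were called lower with TAM (-1.29 and -0.83). Without the trend, 0 of the 14 were called with Rg3, where CDK1 stood at 0.00 and CDK5 at -0.14. With TAM, 2 were then higher and 1 lower, CDK10 (0.64) and CDK19 (-0.69) among them, while CDK5 (0.42) and CDK12 (-0.16) were no longer called. With library totals, 1 of these CDKs was higher and 5 were lower with TAM, and of the other cyclins 0 were higher and 4 lower. Over all 16079 genes compared, 1120 were higher and 4325 lower in that setting.

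The lists below also stand beside 20.5% of all genes higher and 15.8% lower with Rg3, and 14.0% and 18.4% with TAM. Downstream of the members, of 20 E2F target genes of S phase, 0 were higher and 6 lower with Rg3 (median -0.22). With TAM, 3 were higher and 1 was lower (median 0.06). With library totals, 2 were higher and 3 lower with Rg3 (median -0.08), and 0 were higher and 3 lower with TAM (median -0.15). Over all 16487 genes compared, library totals gave 4367 higher and 1749 lower with Rg3 (median 0.18). With TAM they gave 1120 higher and 4325 lower of 16079 (median -0.23), so that the calls of all genes moved with the scaling as well. MCM5, a subunit of the replicative helicase, was called lower with Rg3 (-1.10), as were MCM7 (-0.82) and MCM2 (-0.77), and with the trend removed 1 of the 20, MCM5 (-0.65), was still called there. TK1 and CDT1 were called lower with Rg3 (-0.63 and -0.71) and higher with TAM (0.71 and 0.68). Without the trend neither gene was called in either library, and 0 of the 20 were called with TAM. With TMM scaling, 9 of the 20 stood above 0 with Rg3, PCNA (0.26) and RRM2 (0.38) among them. Without the trend 5 did, and PCNA stood at -0.04 and RRM2 at 0.10. PCNA and RRM2 were called in neither library. Of the 20 transcription factors listed as acting on the members, 1 was higher and 4 were lower with Rg3 (median -0.05), and 3 were higher and 6 lower with TAM (median -0.17). With library totals the counts with Rg3 were 3 higher and 3 lower, beside 4367 and 1749 of all genes. JUN, an AP-1 subunit that acts on CCND1, was called higher with TAM (1.18) and FOXO3, which acts on CDKN1B, was called lower (-1.14). KLF6 (-1.03), STAT3 (-0.98) and SP1 (-0.92) were also called lower with TAM, the last not without the trend (-0.30), whereas MYC had values of -0.21 with Rg3 and 0.12 with TAM and was not called.

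To place the patterns over the 3 libraries, each gene's pair of log2 fold changes was compared by Euclidean distance with those of 8424 other genes that had at least 100 counts in each library. FAM107B (distance 0.00172), RPS4XP2 (0.00475), a pseudogene that can share reads with RPS4X, and EMP2 (0.00763) lay nearest to CCND1, and 81 genes lay within 0.1 of it. FUT11 (0.00256), FUNDC2 (0.0208) and LOC101927789 (0.0478) lay nearest to CDKN1A, with 9 genes within 0.1. With 3 libraries, such nearness describes only these counts.

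By the fold alone, 3 members were lower with TAM, CDK6, CCNE2 and CDKN1C, beside 23.8% of all genes. An assumed spread between cultures decided how many calls were made. When edgeR's exact test was given a biological variation (BCV) of 0.2, 0 of the 9 members were called with Rg3 or with TAM against control, where 0.946% and 2.95% of all genes were called in either direction. The adjusted p by that test was 0.146 for CDK4, 0.147 for CDKN1A, 0.296 for CCND3 and 0.477 for CDK6 with TAM, and 0.39 for CCNE2 with Rg3. TAM against Rg3, CCND3 and CDK4 were called higher and CCNE2 lower, beside 30.9% of all genes. With a variation of 0.4, 0 members were called in any comparison, and 0.00607%, 0.00622% and 0% of all genes were. Without the GC and length trend, the binomial test called 2 members with Rg3 (CDKN1A and CDKN1C, both higher), 3 with TAM (CDK4 and CDKN1A higher, CDKN1C lower) and 2 in TAM against Rg3 (CDK6 higher, CDKN1C lower), beside 11.9%, 21.7% and 31.9% of all genes with a GC value.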

How the data were processed

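PANC-1 cells were sequenced as 1 control, 1 Rg3 and 1 TAM library, grouped by the agent in the labels. The authors sequenced total RNA on an Ion Proton and mapped it with TopHat, and the table they deposited holds the unscaled read count of each gene symbol. The submitters' processing notes name GRCh38, while the counting tool and the use of strand are not given in the sources used here. Each of the 3 pairs of libraries was compared by the exact binomial test, two-sided (scipy 1.17.1 in Python 3.11.15), after TMM scaling (edgeR 4.0.16 in R 4.3.3, with factors of 1.02 for control, 1.12 for Rg3 and 0.879 for TAM). Genes below 10 counts in both libraries of a pair were left out, and 3 was the smallest count used in a fold. The Limma criteria of the study need replicates. No column was without a mapped library.

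Alternatives were library totals, DESeq2 1.42.0 size factors, a minimum of 1 or 50 counts, calls on the fold without the test, a BCV of 0.2 or 0.4 assumed in the exact test of edgeR, and subtraction of a loess trend (span 0.3, fitted on genes with at least 50 counts) on GC content and length of the longest GENCODE 29 transcript, which 86.6% of the Rg3 and 87.2% of the TAM comparison's genes had, the 9 members among them. The binomial test and the trend removal were run on simulated Poisson counts, scaled by library totals, with no spread between cultures. Of 2-fold changes, 76.5% were recovered for Rg3 against control and 75.0% for TAM against control. That simulation cannot show how calls behave with spread between cultures.

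The 10 members and the 6 pathway lists described were chosen with earlier results of these data known. Named genes were the members, up to 4 called genes of each list, comparison and direction with at least 100 counts in either of the pair, the RB1, E2F and CDKN2 families, and the 3 nearest patterns to CCND1 and CDKN1A. Several of these are given by number only. The genes named without a call, and TSPAN31, INTS8, FBXW7, CDK2, SKP2, PCNA, RRM2 and MYC, were added for their known roles after the values were seen. The planned comparison of protein sequences was not run, and the results of 1 planned list and 1 gene are not reported here.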

Additional observations from a re-analysis of the deposited data

How the results depend on the processing

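No paired analysis was possible because there was a single library of every kind, and none could be left out either. DESeq2 size factors and a minimum of 1 or 50 counts left each count of members called within 1.5 times. With an assumed variation of 0.2, 0 members were higher with Rg3, 0 were higher and 0 lower with TAM, and 2 were higher and 1 lower in TAM against Rg3, and with 0.4 each of these counts was 0. By the fold alone, 3 members were lower with TAM, beside 23.8% of all genes. Without the GC and length trend, 2 members were higher with Rg3, and 1 was higher and 1 lower in TAM against Rg3. Directions turned with that removal for CCND1 (0.0710), CCND3 (0.21), CDK4 (0.17) and CDK6 (-0.47) with Rg3, for CDK6 with TAM (0.29), and for CDK6 (0.71) and CDKN1A (-0.0361) in TAM against Rg3. Among the ratios they turned with Rg3 for CDKN1A to CDKN1B (0.45), CCND1 to CCND3 (-0.14), CDK6 to CDK4 (-0.64) and CCND1 to CDK4 (-0.10), with TAM for CDKN1B to CCNE1 (0.18), and in TAM against Rg3 for CDKN1A to CDKN1B (-0.15) and CDK6 to CDK4 (0.14). These turns arose where the subtracted trend was larger than the change itself, and the cause of the trend was not tested. With library totals, through the shift of the scaling itself, they turned for CCND1 (0.14) and CDK4 (0.0461) with Rg3 and for CDKN1B in TAM against Rg3 (-0.33), which is also the median of the members there. With a minimum of 1 count, which adds CCND2, that median was -0.0775. Library totals also moved the calls over all genes to 4367 higher and 1749 lower with Rg3 from 3377 and 2606, to 1120 and 4325 with TAM from 2250 and 2965, and to 2718 and 6754 in TAM against Rg3 from 4461 and 5107. Depth limits CCND2, CCNE2 and CDKN1C most, with at most 67 counts in any library.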
